A study of Mus musculus with 16 samples.

Results

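Intracisternal A-particles (IAPs) are long terminal repeat retrotransposons of the mouse, and some of them take different methylation levels in genetically identical animals. The 8 genes described here, *Mbnl1*, *P4ha1*, *Rnf157*, *Rab6b*, *Hectd4*, *Ect2l*, *Eps8l1* and *Bmf*, host or neighbour such variably methylated IAPs, and they were chosen by a methylation difference between B and T cells in the flanks of the IAP, with no stated limit on its size. They are 8 of 21755 protein-coding genes of GENCODE vM21 on chromosomes 1 to 19 and X. Because the flanks chose the genes, the values within 5 kb of an IAP are given as a description, and the comparisons below use only sequence beyond that distance, from 10 kb upstream to 10 kb downstream of each gene. The question was whether the difference between the cell types belongs to the regulatory sites of the genes. Of such sites, only annotated transcript starts were examined.

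The data were whole-genome bisulphite sequencing (WGBS) libraries of splenic lymphocytes from C57BL/6J mice aged 6 to 8 weeks, 8 libraries of CD43- resting B cells and 8 of naive CD4+CD62L+ T cells, all sorted on magnetic columns and with no gene altered. In each cell type 4 libraries came from males and 4 from females. For each sex, 2 were treated with bisulphite alone (BS), which reads 5-methylcytosine and 5-hydroxymethylcytosine alike, and 2 with an oxidation step first (oxBS), which leaves 5-methylcytosine as the sole modified base that is read. The labels state that mice were pooled and that part of a prepared sample was oxidised, so a BS and an oxBS library may come from the same DNA. The libraries were treated as separate samples, and p-values measure only the spread between them.

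DNA methylation at CpG dinucleotides is high over most of the mammalian genome and low at CpG-rich promoters and at active enhancers. During lymphocyte development, enhancers and promoters used by one lineage lose methylation there and stay methylated in the other. 5-hydroxymethylcytosine is the product of TET enzymes acting on 5-methylcytosine and is often found in the bodies of transcribed genes.

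Libraries held between 123323834 and 170619848 calls at CpGs of the reference, or 5.78 to 7.99 calls per CpG, and overall methylation was 80.4% ± 0.638 (SD, n = 8) in B cells and 79.1% ± 0.490 in T cells. As a check of the sort, regions at the 5′ ends of marker genes were compared. All 6 T cell markers (*Cd3e*, *Cd3d*, *Cd3g*, *Lck*, *Cd4*, *Cd5*) were less methylated in T cells, at 1.53% to 10.7% against 59.1% to 94.0%, and all were called. All 6 B cell markers were less methylated in B cells, and 5 were called, the exception being *Blk* at 0.201% in B cells and 9.67% in T cells. Of 4 CD8 T and NK cell markers, *Cd8a* and *Cd8b1* were lower in T cells. None of 4 myeloid and none of 3 erythroid markers was called.

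Within 5 kb of the IAPs, the widest difference of any 500 bp bin was at *Mbnl1*, with 90.8% in B cells and 21.3% in T cells, followed by *P4ha1* (94.9% and 31.9%) and *Rnf157* (94.4% and 34%). In the widest bin, B cells were also the higher at *Eps8l1* (63.4% and 17.2%), *Hectd4* (93.1% and 51.1%) and *Ect2l* (91.0% and 53.0%), while T cells were the higher at *Rab6b* (29.0% and 74.2%) and *Bmf* (55.8% and 88.9%). These are single bins and not the direction of a flank. At *Rab6b*, 2 bins were higher in B cells by at least 20 points and 1 in T cells. At *Bmf* there was 1 in each direction. At *P4ha1*, *Hectd4*, *Ect2l* and *Eps8l1* only 1 bin reached 20 points. Only IAPs of the study's constitutive class, variably methylated in all tested tissues, were ranked by their widest flank difference. The 8 IAPs took positions from 2 to 11 of the 50 in that class with measured flanks. Elements that were not chosen stood among them, with B minus T differences of 74.5 points beside *Trbv31*, -47.6 beside *Bex6* and 33.9 beside *Zfp619*. The *Bmf* element was the lowest of them at a difference of 33.1 points, and the nearest element below it, beside *2610035D17Rik*, had 31.9 points. The IAPs at *Mbnl1*, *Rnf157*, *Hectd4* and *Ect2l* lie within the gene, the one at *Eps8l1* ends at the gene's first bases, and those at *Rab6b*, *Bmf* and *P4ha1* lie 2675, 5079 and 8495 bp from the gene.

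Beyond 5 kb, calls were pooled over 500 bp tiles with at least 3 CpGs, and a tile was called where a quasi-binomial model gave an adjusted p under 0.05 and the pooled levels differed by at least 20 points. The 8 windows held 921 tested tiles, of which 63 were called, or 6.84%. Of all tiles within 10 kb of a protein-coding gene, 3.66% were called. These tiles come from the same libraries and the same contrast as the flanks but from other positions. Of the 63, 46 were higher in B cells (2.36% of all gene-window tiles were called in that direction) and 17 in T cells (1.29%). In 55 of the 63, no B cell library overlapped a T cell library. Two-sided exact permutation tests over libraries gave p-values from 0.000155, the smallest possible with 8 against 8, to 0.00794, for a tile with 5 against 5. These tests were run only on called tiles, with the libraries that gave the calls, so they are a description and no separate support. Non-overlap with a difference of at least 20 points was met by 57 of the 921 tiles and by 3.23% of all gene-window tiles. The median difference over the 921 tiles was 0.69 points and over all gene-window tiles 0.47 points.

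The calls were unequally spread over the genes. *Mbnl1* held 21 of 112 tiles (18.8%), *Bmf* 7 of 49 (14.3%) and *Rnf157* 13 of 141 (9.22%). *Ect2l* held 6 of 118 (5.08%), *Rab6b* 7 of 150 (4.67%), *P4ha1* 3 of 86 (3.49%) and *Hectd4* 6 of 221 (2.71%), which is near the share over all gene windows. In *Eps8l1* none of 44 tiles was called in the quasi-binomial fit. There, 2 tiles had an unadjusted p under 0.05, and the differences ran from -7.29 to 6.95 points. All 21 calls in *Mbnl1* and all 3 in *P4ha1* were higher in B cells, all 7 in *Bmf* were higher in T cells, and the other 4 genes held calls in both directions.

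**Figure D1:**
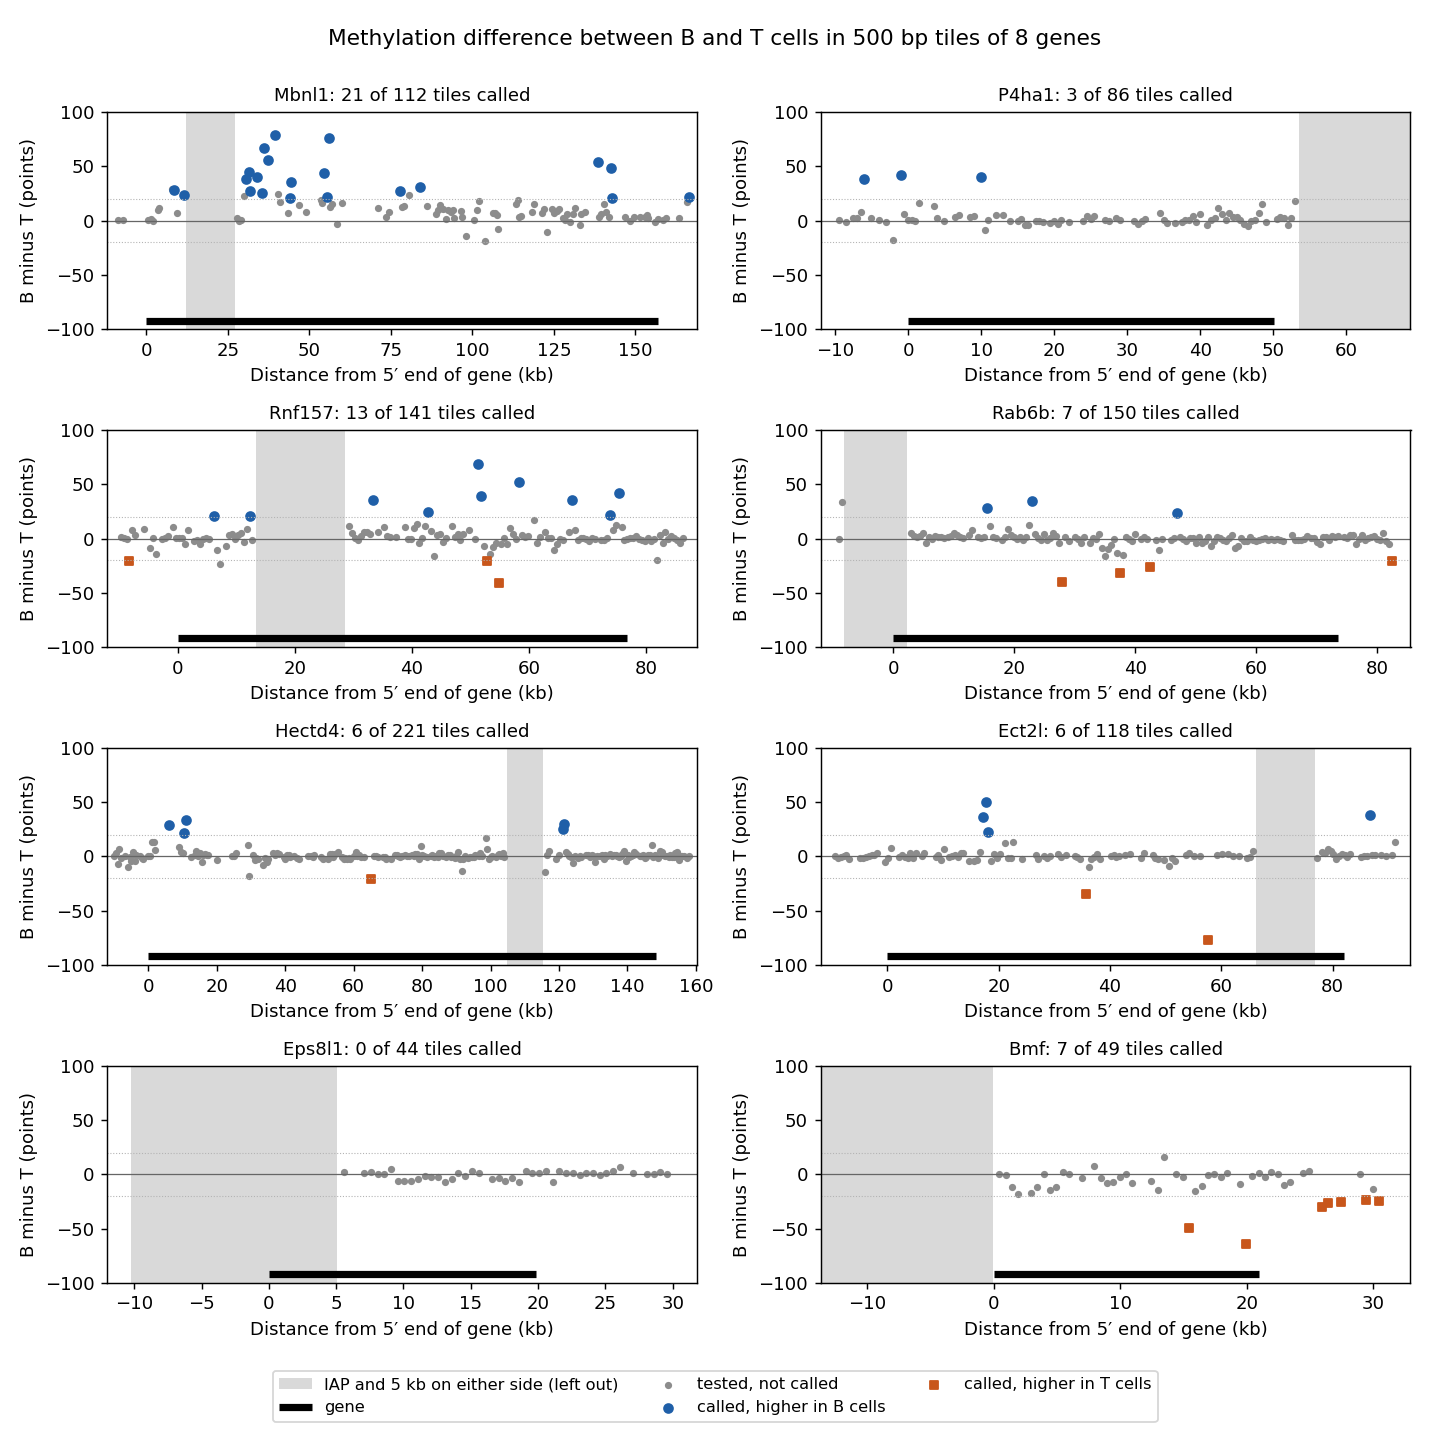
Difference in methylation (B minus T, percentage points) of each tested 500 bp tile against its distance from the gene's 5′ end in kb, 1 panel per gene, with called tiles in colour and the IAP with 5 kb on either side shaded. Calls in Mbnl1 all lie above 0, those in Bmf all below 0, and Eps8l1 has none.

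The 3 genes with the widest called tiles were *Mbnl1*, *Ect2l* and *Rnf157*. The middle 300 bases of each such tile are printed here to show the kind of sequence measured, from the plus strand of GRCm38 (mm10), with CpGs in capitals.
Mbnl1 chr3:60512101-60512400: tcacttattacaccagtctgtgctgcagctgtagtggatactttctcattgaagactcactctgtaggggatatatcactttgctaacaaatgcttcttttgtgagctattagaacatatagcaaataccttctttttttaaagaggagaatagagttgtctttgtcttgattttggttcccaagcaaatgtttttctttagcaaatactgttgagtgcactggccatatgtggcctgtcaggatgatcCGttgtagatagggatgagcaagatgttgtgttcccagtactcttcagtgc
Ect2l chr10:18153101-18153400: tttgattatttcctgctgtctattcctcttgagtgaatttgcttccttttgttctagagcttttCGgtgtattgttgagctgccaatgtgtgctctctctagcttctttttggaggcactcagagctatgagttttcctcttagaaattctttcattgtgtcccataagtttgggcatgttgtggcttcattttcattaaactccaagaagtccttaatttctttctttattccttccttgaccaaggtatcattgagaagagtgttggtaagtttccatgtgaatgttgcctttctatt
Rnf157 chr11:116361601-116361900: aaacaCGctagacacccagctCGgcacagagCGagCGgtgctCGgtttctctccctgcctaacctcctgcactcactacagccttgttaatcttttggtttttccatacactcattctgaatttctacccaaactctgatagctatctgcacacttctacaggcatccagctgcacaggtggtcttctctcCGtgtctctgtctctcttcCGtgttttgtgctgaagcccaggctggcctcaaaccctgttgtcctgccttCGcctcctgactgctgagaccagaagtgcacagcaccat
The *Mbnl1* and *Ect2l* windows each hold 1 CpG, and their tiles 4 and 3, so these levels rest on few sites. The *Rnf157* window holds 8 CpGs. Of its bases, 25% are soft-masked as repeats in the assembly, against 15.3% in *Mbnl1* and 95.3% in *Ect2l*. Among all 63 called tiles, 4 were soft-masked over more than 50% of their length, as were 106 of the 921 tested.

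*Mbnl1* encodes a muscleblind-like RNA-binding protein that regulates alternative splicing. The gene lies on the plus strand at chr3:60472830-60629750, and its full-length IAP sits in an intron, 17043 bp downstream of the gene's 5′ end. At the intronic tile chr3:60512001-60512500, 39421 bp from the 5′ end, 6 B cell libraries with at least 20 calls ranged from 81.8% to 100% with a median of 92.5%. The 5 informative T cell libraries ranged from 0% to 30.6% with a median of 9.38%. Of these libraries 4 of the 6 B cell ones were BS and 4 of the 5 T cell ones oxBS, and the highest T cell value was the single BS library. The difference of means was 61.3 points in BS and 81.5 points in oxBS libraries, and in BS libraries alone the tile chr10:18153001-18153500 of *Ect2l* differed by more, at -76.7 points. The groups did not overlap, and their means were 90.8% ± 6.80 and 12.03% ± 11.2. The adjusted p was 0.0175 in the quasi-binomial fit. It rose above the threshold, to 0.0550, 0.0514 and 0.0573, without B cell library 11, 1 or 4. Without any 1 of the 5 informative T cell libraries, the tile fell below the minimum of 5 and could not be tested.

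The called tiles of *Mbnl1* extended far along the gene, of whose 302 tiles with a CpG only 112 could be tested. From 5 to 20 kb of the IAP, 10 of 23 tiles were called, and beyond 50 kb 6 of 72 were called (8.33%). A cluster lay just downstream of a CpG-rich internal start-site region (chr3:60500435-60501778, 125 CpGs), which itself was at 1.40% ± 0.746 in B cells and 0.819% ± 0.423 in T cells (n = 8 each). At the nearest of them, chr3:60503001-60503500, pooled levels were 39.5% (B) and 0.823% (T). At chr3:60508501-60509000, further from that start, B cells were at 89.2% and T cells at 22.3%. Between these, at chr3:60508001-60508500, T cells were also high in BS libraries, at 63.0% to 80.8%, and lower in oxBS libraries, at 39.3% to 46.4%, against 78.4% to 95.8% in B cells. Both cell types were low at the start itself, while T cell levels beside it varied from tile to tile. Among the 112 tested tiles of *Mbnl1*, 22 were at 20% or less in T cells and 9 in B cells. At 80% or more there were 47 tiles in T cells and 71 in B cells. A second group of calls surrounded internal starts further along the gene. There, tile chr3:60528501-60529000, 55.9 kb from the 5′ end, was at 88.1% in B cells and 11.8% in T cells. A further group lay near the 3′ part, where tile chr3:60611001-60611500 was at 82.3% and 27.8%.

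*Rnf157* encodes a RING finger protein with ubiquitin ligase activity. It lies on the minus strand at chr11:116336353-116413032 and hosts a full-length IAP in an intron. At tile chr11:116361501-116362000, 8 B cell libraries ranged from 78.8% to 92.4% with a median of 84.8%. The 8 T cell libraries ranged from 5.74% to 24.5% with a median of 18.3%. The means were 85.2% ± 4.08 and 17.3% ± 6.14, with an adjusted p of 1.71e-06. At chr11:116358001-116358500 in the same part of the gene, the direction was the opposite. B cell libraries there ranged from 10.96% to 41.5% with a median of 17.99%, and T cell libraries from 52.7% to 71.9% with a median of 62.4% (quasi-binomial adjusted p = 0.000224). Both tiles lie in the part of the gene that holds internal transcript starts, at 51281 and 54781 bp from its 5′ end. The tile with the smallest p in the gene, chr11:116354501-116355000 with 17 CpGs, was at 93.4% in B cells and 41.0% in T cells.

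*Bmf* encodes a BH3-only protein of the BCL-2 family, which promotes apoptosis. It lies on the minus strand at chr2:118528757-118549687, with the IAP beyond its 5′ end. At tile chr2:118529501-118530000, in the last part of the gene and overlapping an exon, B cell libraries ranged from 19.4% to 43.2% with a median of 30.5%. T cell libraries ranged from 89.1% to 98.3% with a median of 94.9%. The means of 30.6% ± 7.30 and 95.0% ± 3.30 (n = 8 each) came from groups that did not overlap, and the adjusted p was 2.24e-06. At chr2:118534001-118534500, in an intron, B cells were at 13.1% and T cells at 62.5%. The other 5 calls lay beyond the gene's 3′ end, at differences of 23.8 to 30.5 points. All 7 were between 20266 and 35266 bp from the IAP.

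*Ect2l*, a relative of the guanine nucleotide exchange factor gene *Ect2*, lies on the minus strand at chr10:18128903-18210890 and hosts a solo LTR. At tile chr10:18153001-18153500, the 5 informative B cell libraries ranged from 10% to 31.8% with a median of 17.4%. The 8 T cell libraries ranged from 85.3% to 100% with a median of 97.1%, and the adjusted p was 0.000441. A run of 3 tiles from chr10:18192501 to 18194000 went the other way. At its middle tile, with 10 CpGs, B cell libraries ranged from 51.4% to 61.9% with a median of 58.5%, and T cell libraries from 5.56% to 10.7% with a median of 7.92% (quasi-binomial adjusted p = 1.48e-06).

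*Rab6b* encodes a small GTPase of Golgi traffic. Its gene lies on the plus strand at chr9:103111787-103185276 and a solo LTR lies upstream of it. At the intronic tile chr9:103139501-103140000, B cell libraries ranged from 51.7% to 64% with a median of 54.0%. T cell libraries there ranged from 92.1% to 98.2% with a median of 95.5% (quasi-binomial adjusted p = 1.54e-05). At chr9:103134501-103135000 the order was reversed, with B cell libraries between 53.5% and 68.7% (median 64.5%) and T cell libraries between 23.2% and 31.8% (median 30.1%, quasi-binomial adjusted p = 2.58e-05). The pair of tiles lie in the same gene with opposite signs, and neither shows overlap between the groups.

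*P4ha1* encodes the catalytic alpha subunit of prolyl 4-hydroxylase, an enzyme of collagen synthesis. It lies on the plus strand at chr10:59323296-59373304, with its IAP beyond the 3′ end. All 3 called tiles lay at the opposite end of the gene, at least 48299 bp from the IAP. The widest, chr10:59322001-59322500, had its centre 1045 bp upstream of the start. B cell libraries there ranged from 61.9% to 90.2% with a median of 78.2%, and T cell libraries from 15.2% to 48.8% with a median of 36.3% (quasi-binomial adjusted p = 0.000614).

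*Hectd4* encodes a HECT domain protein of the ubiquitin ligase family, at chr5:121220219-121368577 on the plus strand, with a solo LTR in an intron that the study lists as IAP-Gm15800. At tile chr5:121231001-121231500, in an intron near the 5′ end, B cell libraries ranged from 69.2% to 86.4% with a median of 79.7%. T cell libraries ranged from 26.5% to 58.1% with a median of 44.6% (quasi-binomial adjusted p = 0.000592). The 1 tile higher in T cells, chr5:121285001-121285500, was at 74.2% ± 6.84 in B cells and 95.5% ± 1.68 in T cells. Its pooled difference of 21.0 points became 19.9 without B cell library 4, below the limit. *Eps8l1*, at chr7:4460674-4480487, encodes an adaptor protein related to EPS8. Its tile with the smallest p, chr7:4486501-4487000 at an internal start of the neighbouring gene *Ppp1r12c*, was at 95.0% ± 3.54 in B cells against 87.8% ± 4.49 in T cells, with an adjusted p of 0.136.

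**Figure D2:**
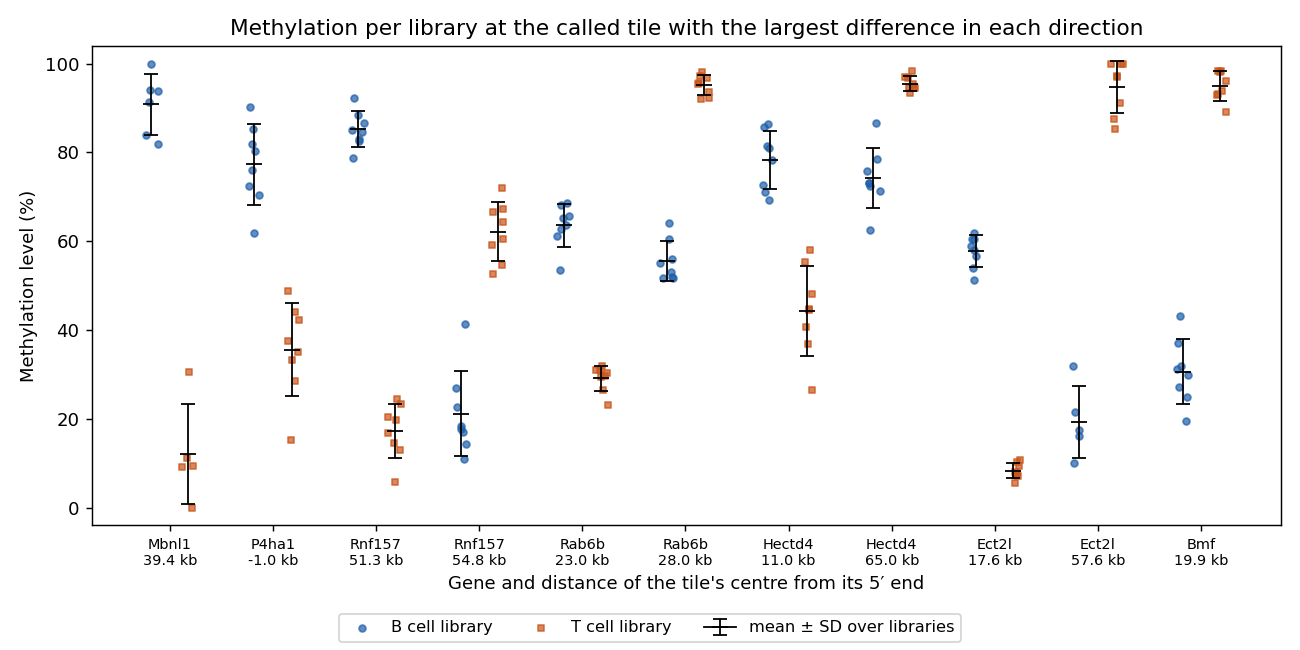
Methylation level (%) of each library (points) with mean ± SD at the called tile with the largest difference in each direction, for the 7 genes with a called tile; libraries with fewer than 20 calls are left out. B and T cell libraries overlap at none of these tiles.

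The difference was then set against annotated transcript starts. A start-site region was the sequence within 500 bp of the starts of a protein-coding gene, with starts of a gene closer than that merged. The 8 genes had 35 such regions, of which 6 lay within 5 kb of an IAP and 29 were tested. Of the 29, 2 were called (6.90%), against 2.81% of all tested start-site regions. Both belong to internal starts of *Mbnl1* and overlap each other by a short stretch. At chr3:60527628-60528628, B cell libraries ranged from 28.7% to 46.9% with a median of 32.9%, and T cell libraries from 6.33% to 21.4% with a median of 11.8% (quasi-binomial adjusted p = 0.000119). At chr3:60528531-60530131 they ranged from 84.4% to 94.3% (median 89.5%) and from 47.9% to 78.3% (median 64.5%, quasi-binomial adjusted p = 2.40e-05). The T cell spread at this second region followed the assay, with 74.9% ± 3.22 in BS and 52.7% ± 4.30 in oxBS libraries (SD, n = 4 each), against 91.6% ± 3.02 and 88.9% ± 3.50 in B cells. At the first region the T cell means were 15.5% ± 4.07 in BS and 8.31% ± 2.30 in oxBS libraries, against 37.0% ± 7.08 and 32.0% ± 5.37 in B cells. Fitted in one assay alone, 0 start-site regions of the 8 genes were called in BS and 2 in oxBS libraries by the quasi-binomial fit. Those fits rest on 4 libraries of each cell type, and no tile of the genome was called in either. The share over all start-site regions is not given, so these counts are not a comparison of the assays.

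Of the 8 regions at the 5′ ends of the genes, 5 were tested and none was called in the quasi-binomial fit, with 2 at an unadjusted p under 0.05. The 1 with an adjusted p under 0.05 was that of *P4ha1*. *Mbnl1* was at 0.468% ± 0.866 in B cells, and none of 402 calls in T cells was methylated, which allows a level of up to 0.746% from counting error alone. *P4ha1* was at 2.15% ± 1.12 and 1.05% ± 0.207, *Rnf157* at 0.423% ± 0.249 and 0.195% ± 0.0997, and *Hectd4* at 0.137% ± 0.261 and 0.170% ± 0.162 (SD, n = 8 each). The *Ect2l* region was intermediate, at 29.2% ± 2.81 and 29.9% ± 5.23. Among the 3 within 5 kb of the IAP, which were not tested, *Rab6b* was at 0.747% ± 0.289 and 0.510% ± 0.309, *Bmf* at 0.766% ± 0.375 and 0.657% ± 0.267, and *Eps8l1* at 73.6% ± 15.2 and 62.3% ± 12.4. The *Eps8l1* region includes the end of the IAP itself. The 5′ ends of 6 of the 8 genes were at 3% or less in both cell types, those of *Rab6b* and *Bmf* without a test. Called tiles of these genes lay elsewhere in their windows. The share of all genes with a 5′ end at that level is not given, so the count is not set against the genome.

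Smaller differences at start sites were also measured. Of the 29 tested regions 9 had an adjusted p under 0.05 with no limit on the size of the difference, 4 of them higher in B cells and 5 in T cells, and of all start-site regions 11.3% did. Beside the called pair of *Mbnl1*, those higher in B cells were the 5′ end of *P4ha1*, with an adjusted p of 0.0193, and chr3:60603038-60604038 in *Mbnl1*, at 85.5% ± 4.53 and 75.5% ± 8.38 with an adjusted p of 0.0363. Of 4 internal start-site regions of *Bmf*, 3 passed that threshold and all 3 were lower in B cells. Among these, chr2:118546527-118547527 and chr2:118547059-118548099 overlap, so they share sequence. At chr2:118547059-118548099 levels were at 9.20% ± 2.84 and 26.8% ± 4.21, with an adjusted p of 8.12e-05, and the difference of 17.7 points was below the limit of 20. At chr11:116359512-116360512, an internal start of *Rnf157*, levels were 45.7% ± 7.88 and 63.6% ± 4.39, 18.1 points apart (quasi-binomial adjusted p = 0.000729). This region overlaps the other *Rnf157* region among the 9, chr11:116358581-116360005. Of 10 start-site regions of neighbouring genes within the windows, among them *Foxj1*, *Srprb* and *Trafd1*, none was called in the quasi-binomial fit, with 2 at an unadjusted p under 0.05. The 1 with an adjusted p under 0.05 was an internal start of *Ppp1r12c* beside *Eps8l1*, chr7:4486235-4487235, at 95.9% ± 2.10 in B cells against 89.8% ± 3.95 in T cells, with an adjusted p of 0.0397.

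**Figure D3:**
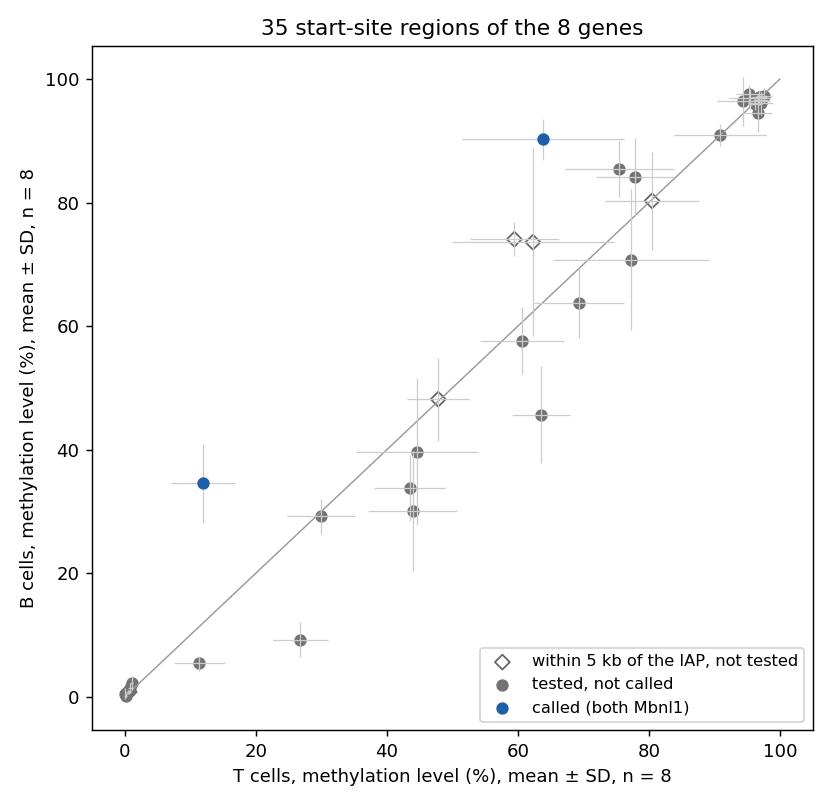
Methylation level (%) of the 35 start-site regions of the 8 genes in B cells against T cells, as mean ± SD over 8 libraries each, with the diagonal marking equal levels. The 2 called regions, both of Mbnl1, lie above the diagonal, and open diamonds mark the 6 regions within 5 kb of an IAP.

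Most called tiles were not at annotated starts, and neither were most tested tiles or most called tiles of all gene windows. Whether the called tiles away from starts lie at enhancers was not tested. Of the 63, 7 had their centre within 1 kb of the start of any annotated transcript (11.1%), compared with 133 of the 921 tested (14.4%). Over all gene windows the same shares were 12.3% of called and 12.9% of tested tiles. The 7 were 3 tiles of *Mbnl1*, 3 of *Rnf157* and 1 of *Hectd4*. Of the rest, 41 lay in introns (65.1%), 6 overlapped exons (9.52%) and 9 lay between genes (14.3%). Among gene-window tiles called, 63.0% lay in introns, 12.5% overlapped exons and 12.2% lay between genes. By place, 10% of the tested tiles between genes were called (3.21% over all gene windows), as were 8.32% in introns (3.93%), 5.26% near starts (3.49%) and 2.93% over exons (3.14%). Exon tiles were 22.3% of those tested in these genes and 14.6% over all gene windows. These shares are a description, since tiles of a gene are not independent samples.

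Over the 8 genes together, the share of called tiles by distance from the IAP was 7.37% from 5 to 10 kb (7 of 95), 7.06% from 10 to 20 kb (12 of 170), 8.12% from 20 to 50 kb (28 of 345) and 5.14% beyond 50 kb (16 of 311). From 5 to 10 kb, all 7 calls were in *Mbnl1* and *Rnf157*. In *Mbnl1* the share was lower in each further bin, at 45.5% (5 of 11), 41.7% (5 of 12), 29.4% (5 of 17) and 8.33% (6 of 72), each but the last resting on fewer than 20 tiles. From 20 to 50 kb, 7 of 25 tiles of *Bmf* and 8 of 65 of *Rnf157* were called. Called tiles formed 48 runs, counting tiles whose starts were at most 1 kb apart and whose sign was the same, and 37 of these were a single tile. Both adjoining tiles were tested in 17 of the 37, 1 in 12 and neither in 8, so the length of many differences is not known. The lower cell type was at 20% or less in 16 of the 63 (25.4%), and both cell types were between 20% and 80% in 20 (31.7%). Among all called gene-window tiles these shares were 20.6% and 23.0%.

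Short motifs of transcription factors active in lymphocytes were counted in the 500 bp tiles on both strands. TGTGGT, the core recognised by RUNX factors, was in 16 of the 63 called tiles (25.4%), in 33.98% of the tested tiles of these genes, in 33.5% of all gene-window tiles and in 42.7% of called gene-window tiles. GGAAGT, an ETS core, was in 19 (30.2%), 29.0%, 27.3% and 33.7% of the same 4 sets. CTTTGA, a core of TCF and LEF factors, was in 29 (46.0%), 29.1%, 31.1% and 36.3%. A match to 6 letters is a description and not a binding site, and none of the 3 motifs occurs in the 3 windows printed above.

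Pooled over the whole gene without the IAP and its 5 kb, none of the 8 gene bodies differed by 20 points, and of all 21247 gene bodies tested 0.612% were called, with an adjusted p under 0.05 and at least 20 points. The adjusted p was under 0.05 for 4 of the 8, and for 23.7% of all gene bodies. *Mbnl1* was at 68.3% ± 2.08 in B cells and 53.9% ± 7.53 in T cells (n = 8 each), without overlap between libraries and with an adjusted p of 0.000547. A difference at least that wide, 13.8 points pooled, was found in 1.39% of all genes. *Rnf157* was at 76.9% ± 2.40 and 70.4% ± 2.13 (quasi-binomial adjusted p = 0.00233), *Hectd4* at 90.1% ± 0.576 and 88.1% ± 1.33 (quasi-binomial adjusted p = 0.00138) and *Bmf* at 51.1% ± 3.83 and 57.3% ± 1.91 (quasi-binomial adjusted p = 0.0127). The bodies of *P4ha1*, *Rab6b*, *Ect2l* and *Eps8l1* differed by 3.22 points or less, with adjusted p-values from 0.0853 to 0.590.

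The spread among the T cell libraries at *Mbnl1* followed the assay. In T cells, the 4 BS libraries were at 60.9% ± 0.779 (59.8% to 61.5%) and the 4 oxBS libraries at 47.0% ± 1.67 (45.1% to 48.5%). These did not overlap, and the two-sided exact permutation p was 0.0286, the smallest that 4 against 4 libraries can give. BS and oxBS libraries of T cells were also apart in *Rnf157*, *Rab6b* and *Ect2l*, with the same exact p, so that they were apart in 4 of the 8 genes and in 16.4% of all genes. In B cells the BS and oxBS libraries were at 68.3% ± 2.41 and 68.3% ± 2.07. The B minus T difference was thus 7.39 points in BS and 21.5 points in oxBS libraries. A quasi-binomial fit of the cell type by assay term over all gene bodies, added after the data had been seen, gave an adjusted p of 0.00512 for *Mbnl1*, and 4.24% of all gene bodies had an adjusted p under 0.05. Since BS reads both modified bases and oxBS only 5-methylcytosine, the gap between assays is the usual measure of 5-hydroxymethylcytosine. In T cells the gap was 13.9 points over *Mbnl1*, as large or larger in 66 of 21247 genes (0.311%), and its median over all genes was 0.96 points. What the gap at *Mbnl1* reflects was not tested. The study did not separate the assays, because it took hydroxymethylation to be very low in these samples.

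In the other 7 genes the gap in T cells was between 1.31 points in *Bmf* and 3.37 points in *P4ha1*, and in B cells between -4.44 points in *Eps8l1* and 0.62 points in *Hectd4*. The same fit gave an adjusted p of 0.0311 for *Rab6b*, where the B minus T difference was -1.63 points in BS and 0.86 points in oxBS libraries. That call was lost in 10 of 16 fits that left out 1 library, whereas the one for *Mbnl1* held in all 16. Beyond the gene bodies as a whole, the gap was spread along *Mbnl1*. In T cells, BS exceeded oxBS by at least 20 points in 26 of 112 tiles (23.2%), against 0.806% of all gene-window tiles, and the median gap was 13.4 points. In B cells it did so in 1 tile, against 0.0216%, with a median of 0.37 points.

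**Figure D4:**
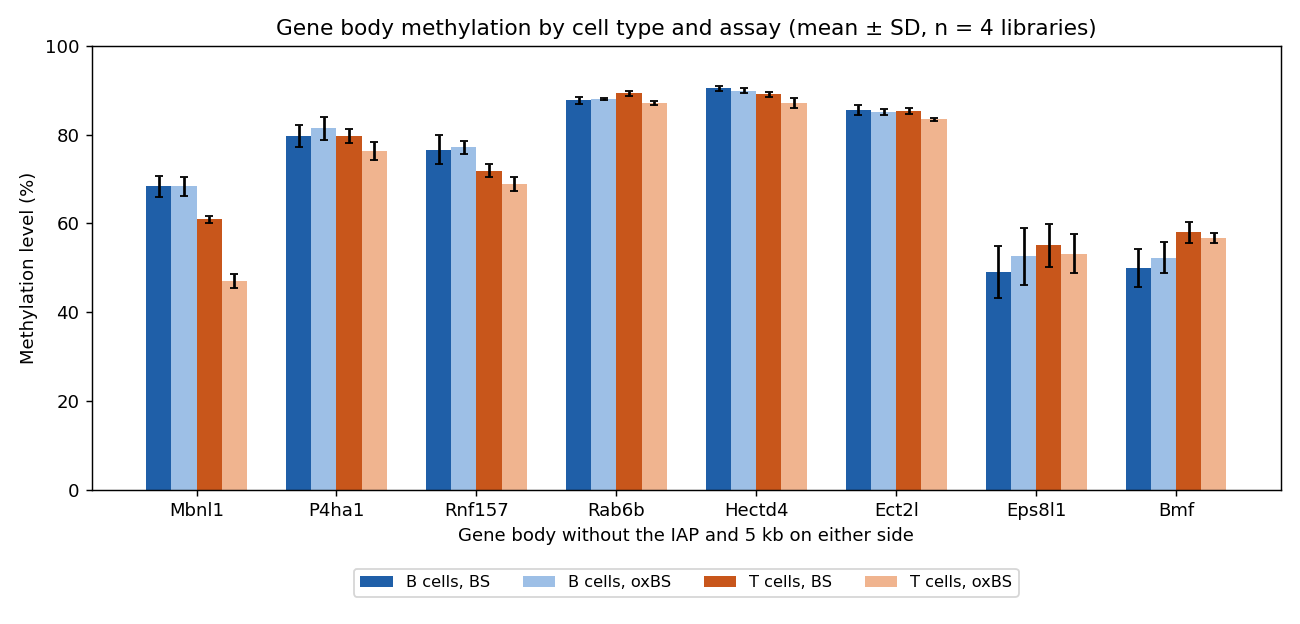
Gene body methylation (%) of the 8 genes by cell type and assay, as bars of the mean with SD over 4 libraries, without the IAP and 5 kb on either side. The T cell oxBS bar of Mbnl1 (47.0%) stands below its T cell BS bar (60.9%), while the B cell bars are level at 68.3%.

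The difference between the cell types at the 21 called tiles of *Mbnl1* was present in both assays. B cells were higher in all 21 tiles in BS and in all 21 in oxBS libraries, with median differences of 28 and 44.9 points. The difference reached 20 points in 53 of the 63 called tiles of the 8 genes in BS, 58 in oxBS, 57 in male and 58 in female libraries, which are the libraries the tiles were called on. No single tile of the 921 had a B minus T difference that itself was called as different between assays or sexes in the quasi-binomial fit, and none of all gene-window tiles did (0% for either). At an unadjusted p under 0.05 there were 64 of the 921 tiles for the assay, where 4.37% of all gene-window tiles passed. For sex there were 20 of the 921, where 1.85% passed.

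**Figure D5:**
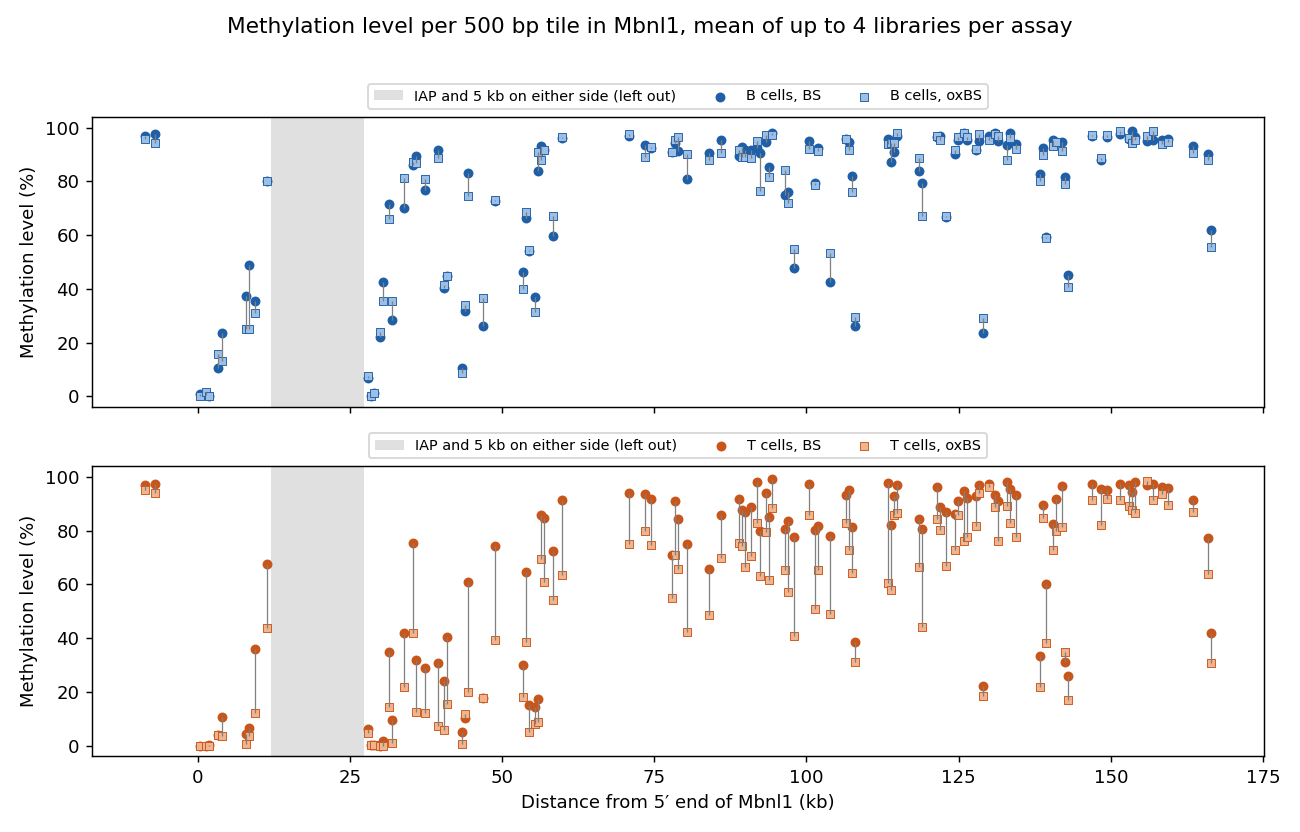
Methylation level (%) of each tested tile in Mbnl1 against distance from the 5′ end (kb), for B cells (upper panel) and T cells (lower panel), as the mean of the BS (circles) and oxBS (squares) libraries joined by a line. The lines are short in B cells and long in T cells, where oxBS lies at least 20 points below BS in 26 tiles.

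The families of these genes were examined in the same way, through 21 relatives such as other muscleblind-like, prolyl hydroxylase, EPS8 and BH3-only genes. Of 1896 tested tiles in their windows 78 were called (4.11%), near the 3.66% of all gene-window tiles, of which 46 had the B cell level above and 32 the T cell level above. *Mbnl2* held 22 called tiles of 281 (7.83%), 16 of them higher in B cells, and *Bcl2l11*, which encodes the BH3-only protein BIM, held 10 of 94 (10.6%), the highest share. *Mgrn1* held 9 of 111 (8.11%), *Mbnl3* 1 of 62 (1.61%) and *Bad* 1 of 51 (1.96%), and in *P4hb*, *Hectd3*, *Eps8l3*, *Bik* and *Hrk* none of 304 was called in the quasi-binomial fit, with 28 at an unadjusted p under 0.05. Of 70 start-site regions 5 were called, where 2.81% of all such regions were. An internal start of *Mbnl2* was at 66.3% ± 7.37 in B cells and 27.3% ± 12.3 in T cells, and one of *Eps8* at 95.9% ± 2.47 and 64.0% ± 8.87. The other 3 were higher in T cells: both of *Eps8l2*, and the 5′ end of *Bbc3*, which encodes the BH3-only protein PUMA, at 36.7% ± 8.63 and 58.7% ± 8.86 (n = 8 each). No gene body of the 21 was called in the quasi-binomial fit, with 8 at an unadjusted p under 0.05.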

How the data were processed

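Reads were trimmed with Trim Galore 0.6.0 and mapped to mm10 (GRCm38) with Bismark 0.20.0, and alignments below a MAPQ of 10 were not used for calls, per the study's methods and processing notes, which also name SAMtools 1.3.1. The authors deposited raw counts of unmethylated and methylated calls per CpG, 1 file a library, with strands combined. In each library, 44938 to 61854 positions that are no CpG of the reference were dropped here. The share of CpGs on chromosome 19 with identical counts in a pair of libraries was at most 7.25%.

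Here, calls were pooled over tiles, start-site regions and gene bodies (GENCODE vM21). IAP positions were those of the study. A feature needed 3 CpGs or more, and 5 or more libraries of each cell type with 20 calls or more. A quasi-binomial logistic model with cell type, sex and assay was fitted to all features (dispersion held at 1 or more), with Benjamini-Hochberg adjustment over all of them. Cell type by sex and cell type by assay terms were fitted separately. Levels are pooled unless given with an SD, which is over libraries. Depth limits a level to a median of 50 calls per tile and library. The fit was also run on simulated data, with results that are not given here. Named tiles were, for each gene, the called tile with the largest difference in each direction, or failing one, the smallest p, and others named to describe a gene were chosen after their values were seen. The 8 genes, lists and tests were chosen with earlier results of these data known. The motifs and the assay test over gene bodies were added after the data had been seen. Python 3.11.15, NumPy 2.4.6, SciPy 1.17.1 and Numba were used. Alternatives covered call and CpG minimums, tile length and grid, the limit on the difference, the dispersion, covariates, windows, single assays and sexes, and each library left out.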

Additional observations from a re-analysis of the deposited data

Results flagged for a closer look

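Results were examined for a B minus T difference that itself differed between the assays, and for a library standing apart from the others of its cell type. The *Mbnl1* gene body was one such result: its difference of differences, BS minus oxBS, was -14.1 points (adjusted p = 0.00512 in the quasi-binomial fit over all gene bodies). The other was the *Rab6b* gene body, at -2.49 points (quasi-binomial adjusted p = 0.0311). No library stood apart in any of 40 groups examined, at named tiles and gene bodies, where chance would mark about 1 in 20.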

How the results depend on the processing

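With at least 40 calls per library, 33 of 549 tiles were called, 24 of them higher in B cells. At a limit of 10 points, 103 tiles (74 higher in B cells), 5 start-site regions and 1 gene body, that of *Mbnl1*, were called. At 30 points, 35 tiles (27 higher in B cells) and 0 start-site regions were called. The shares over all features at these settings are not given, so the counts are not set against the genome. Within the BS, oxBS, male or female libraries alone, 0 tiles were called in either direction by the quasi-binomial fit. None of all tiles of the genome was called in those fits either, and the tiles of these genes with an unadjusted p under 0.05 and at least 20 points were 53, 74, 59 and 58, or 6.00%, 8.50%, 6.67% and 6.55% of those tested, against 3.51%, 4.47%, 3.82% and 3.74% of all gene-window tiles. The start-site regions called were 0 in BS, 2 in oxBS, 1 in male and 0 in female libraries, and 1 gene body was called in oxBS libraries. For these counts, too, the shares over all features are not given. With 1 library left out, the called tiles were between 56 and 62, between 40 and 46 of them higher in B cells, the start-site regions stayed at 2 and gene bodies at 0. The gene bodies differing between assays were between 1 and 2. All other alternatives were within 1.5 times the counts given. Of 269 differences of named tiles under alternatives none changed sign, and 43 lost their call. No paired analysis was run. The labels number the libraries from 1 to 16, share no number between groups and do not state which libraries come from the same DNA. Neighbouring numbers join a BS and an oxBS library of the same sex and cell type, and a pairing by them was not tested. Counting error limits tiles of few CpGs most.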
